A study of Arabidopsis thaliana with 8 samples.

Results

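UGT71B6 (AT3G21780) and BGLU33 (AT2G32860) act on one storage form of the stress hormone abscisic acid (ABA), its glucose ester, and their transcripts were followed across 8 Affymetrix ATH1 arrays of Arabidopsis thaliana rosette leaves. They were chosen by name, each through the 1 probe set that stands for it, and are 2 of the 13286 genes that the annotation tables pair with a probe set of the array. Columbia wild type and the dor mutant, a SALK T-DNA insertion line in Columbia, were each sampled in 2 conditions with 2 biological replicates, which makes 4 groups. Control plants had water for 34 days, and drought plants had water for 24 days before irrigation was stopped for 10 days. All plants grew in soil under long days, and the mutant is represented by 1 insertion line. The label of the RNA extraction names a plant RNA reagent plus a purification kit for both dor arrays of replicate 1 and both wild type arrays of replicate 2, and the kit alone for the other 4.

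ABA is made in drying leaves and closes stomata. UGT71B6 is a glucosyltransferase that joins glucose to ABA and so makes the inactive glucose ester, which plants keep in the vacuole. BGLU33 is a β-glucosidase described as releasing free ABA from that ester in the vacuole. The pair therefore shares a substrate cycle and works in opposite directions, so only UGT71B6 is a conjugating enzyme in the strict sense. The mutant is named after DOR, an F-box gene known for restraining ABA-induced stomatal closure. No sequence of either gene was analysed here.

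Each value below is a MAS5 signal, a linear intensity in arbitrary units that was scaled by the authors for each array, or a log2 difference of such signals. Signals near background have little meaning as levels. The 40th percentile of all probe sets on an array, which lay between 59.5 and 90.8, is used here as a mark of low signal, since detection calls were not analysed here.

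UGT71B6 was low in every watered sample and higher in every droughted one. Wild type control replicates 1 and 2 read 10.3 and 37.4, and the same replicates read 19.4 and 74.8 in dor control. Under drought it read 483.9 and 120 in wild type, and 838 and 201.6 in dor. The 4 drought signals lay above the 4 control signals without overlap, which 10.5% of the 15523 tested probe sets also showed in the upward direction. All 4 control signals fell under the 40th percentile of their arrays and all 4 drought signals above it. The gene thus passed the filter on low values only through the droughted arrays, and its inclusion in the test is tied to being high there.

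The position of UGT71B6 within an array does not depend on the scaling of the array. It stood above 16.6% and 26.3% of probe sets in wild type control, 21.5% and 38.2% in dor control, 73.5% and 44.6% in wild type drought, and 81.7% and 53.4% in dor drought. The droughted samples of replicate 1 stood highest and the watered samples of replicate 1 lowest, while both conditions of replicate 2 lay between them.

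BGLU33 was measured above the 40th percentile on all 8 arrays, and it was lower under drought in each of the 4 matched pairs. Wild type control read 485.2 in replicate 1 and 962.8 in replicate 2, and dor control read 293.1 and 1432.5. Under drought it read 309.6 and 667.1 in wild type, and 175.5 and 682.8 in dor. The ranges of watered and droughted samples overlapped widely, and replicate 2 was higher than replicate 1 in every group. Its position ran from above 56.6% of probe sets (dor drought replicate 1) to above 88.9% (dor control replicate 2). In bulk leaf RNA, a lower signal from fewer cells of a type and one from less RNA per cell cannot be told apart.

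**Figure D1:**
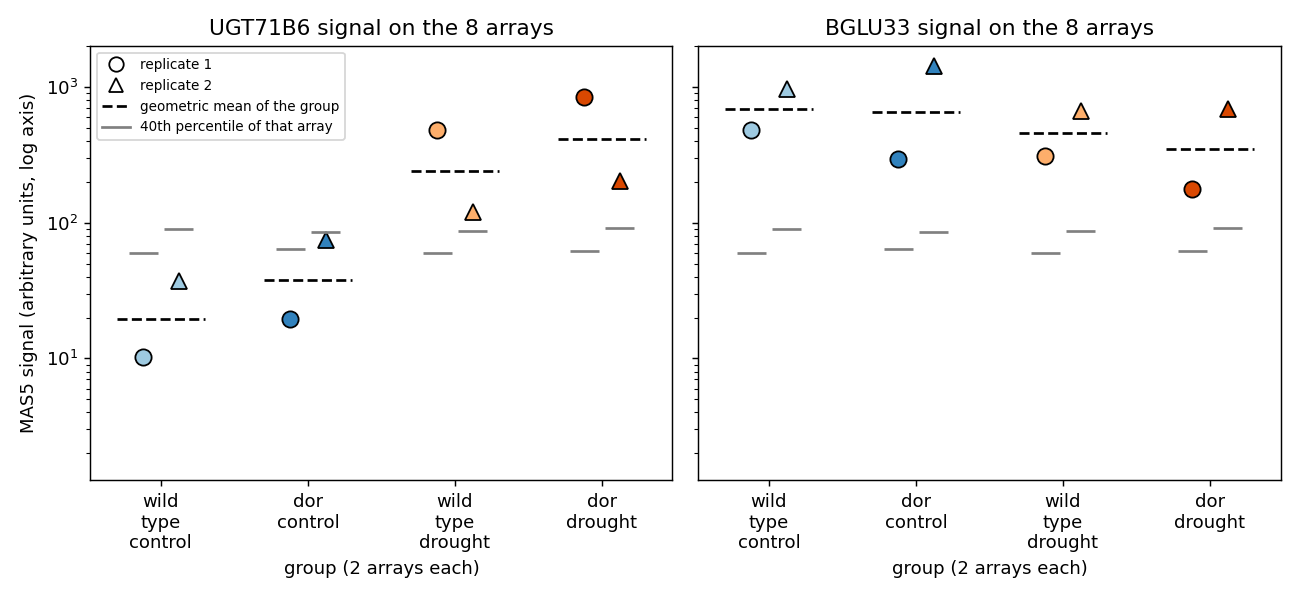
MAS5 signal (arbitrary units, log axis) of UGT71B6 and BGLU33 in the 4 groups, with circles for replicate 1, triangles for replicate 2, dashed lines for the geometric mean of each group and grey ticks for the 40th percentile of each array. The 4 drought signals of UGT71B6 (120 to 838) lie above its 4 control signals (10.3 to 74.8), whereas those of BGLU33 overlap and split by replicate number.

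As group means of log2 signal, UGT71B6 ran in order from wild type control (4.29 ± 1.32, SD, n = 2) through dor control (5.25 ± 1.38) and wild type drought (7.91 ± 1.42) to dor drought (8.68 ± 1.45). The step from dor control to wild type drought was 2.66 ± 1.16 (SE), with a 95% interval of 0.01 to 5.31 that is not adjusted over probe sets. The intervals of the other steps, wild type to dor under control watering and under drought, both held 0. For BGLU33 the order ran from dor drought (8.44 ± 1.39, SD, n = 2) through wild type drought (8.83 ± 0.78) and dor control (9.34 ± 1.62) to wild type control (9.42 ± 0.70). No neighbouring groups of BGLU33 differed beyond their spread. Wild type drought minus dor control, for example, was -0.51 with an interval of -2.72 to 1.69.

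The drought comparisons ask whether each gene responds to withheld water. UGT71B6 differed by 3.62 ± 1.16 (SE) on the log2 scale in wild type, which is 12.3-fold, and limma gave an adjusted p of 0.419 (unadjusted 0.0134, where 9.55% of tested probe sets lay under 0.05). In dor it differed by 3.43 ± 1.16, which is 10.8-fold, with an adjusted p of 0.219 (unadjusted 0.0172, where 15.7% lay under 0.05). Neither passed the threshold of 0.05, which few probe sets did. In wild type 0.00644% of tested probe sets were called in either direction and in dor 0.567%. These folds rest on control signals under the 40th percentile. With such signals raised to that percentile on all arrays, the difference was 1.72 ± 0.84 in wild type (3.30-fold, adjusted p = 0.555) and 2.48 ± 0.84 in dor (5.57-fold, adjusted p = 0.212). The difference of BGLU33 was -0.59 ± 0.96 in wild type (adjusted p = 0.855) and -0.90 ± 0.96 in dor (adjusted p = 0.678). Its 95% interval in wild type, -2.79 to 1.62, allows changes of either sign.

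In an additive fit of both genotypes, UGT71B6 rose under drought by 3.52 ± 0.76, or 11.5-fold (95% interval 1.80 to 5.25 on the log2 scale), with an adjusted p of 0.0339 in limma. It was 1 of the 2.84% of tested probe sets called higher in that comparison, where 2.97% were called lower, 5.81% in either direction, and the median of all tested probe sets was 0.17. BGLU33 differed by -0.75 ± 0.64 (adjusted p = 0.464), above 21.7% of tested probe sets. The UGT71B6 call was lost (adjusted p = 0.169) when condition and replicate number were a random block. Deviations of same-numbered wild type and dor arrays correlated at 0.594 under control watering and 0.402 under drought. It was also lost when signals under the 40th percentile were raised to that percentile, where the difference was 2.1005 and the adjusted p 0.0523.

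**Figure D2:**
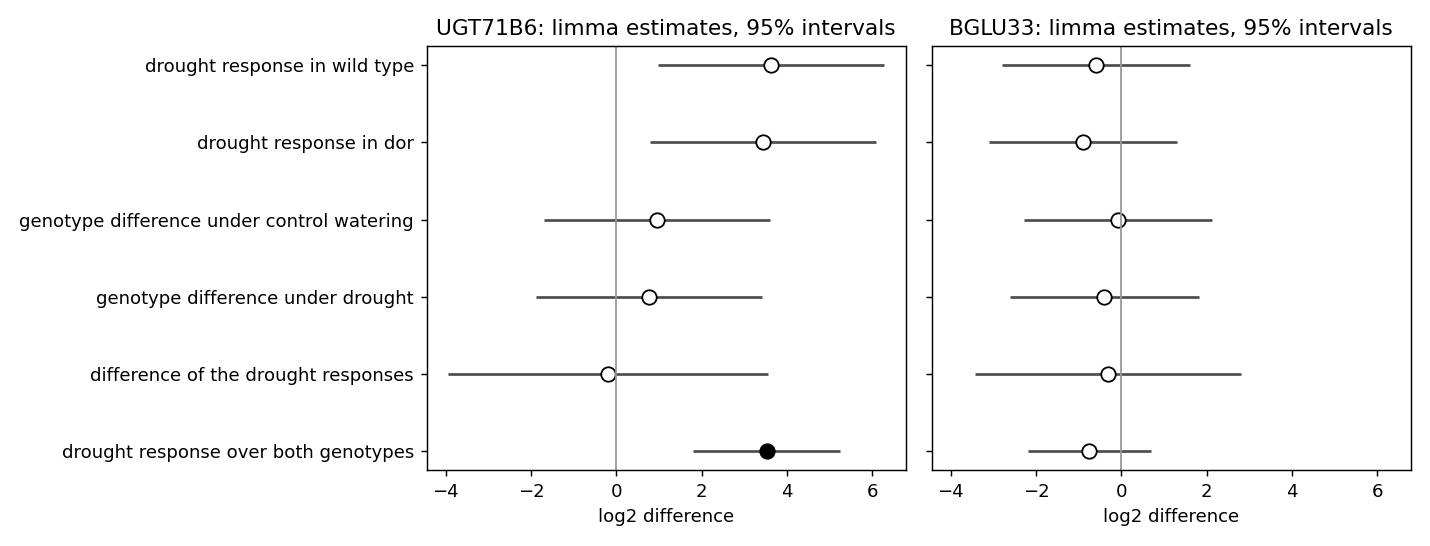
log2 differences (points) with unadjusted 95% intervals (lines) for 6 comparisons of UGT71B6 and BGLU33, from limma over all tested probe sets. Filled points passed an adjusted p of 0.05, which was reached by UGT71B6 in the drought response over both genotypes (3.52) and by no comparison of BGLU33.

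Within each genotype and replicate number the size of the UGT71B6 difference varied far more than its sign. Drought exceeded control 47.0-fold in wild type replicate 1 and 43.2-fold in dor replicate 1, but 3.21-fold in wild type replicate 2 and 2.70-fold in dor replicate 2. The genotypes were close to each other within a replicate number, and the replicate numbers were far apart. With low signals raised to the 40th percentile the 4 ratios were 8.13, 13.0, 1.34 and 2.38, in the same order. BGLU33 was lower under drought by a similar ratio in all 4 pairs, control exceeding drought 1.57-fold in wild type replicate 1, 1.67-fold in dor replicate 1, 1.44-fold in wild type replicate 2 and 2.098-fold in dor replicate 2. Of all tested probe sets 23.1% were above 0 in all 4 pairs and 18.2% below 0, so the agreement of sign alone does not set either gene apart.

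A fit of 4 means of condition and replicate number with an additive genotype term was chosen once the values were known. It treats wild type and dor plants of the same number as replicates apart from a constant offset, which they need not be. In it UGT71B6 rose by 5.49 ± 0.42 within replicate 1 (adjusted p = 0.00182) and differed by 1.56 ± 0.42 within replicate 2 (adjusted p = 0.165). Of all tested probe sets 40.9% were called within replicate 1 and 0.406% within replicate 2. The log2 difference of the UGT71B6 responses, replicate 2 minus replicate 1, was -3.94 ± 0.60 (adjusted p = 0.0365), a comparison that called 4.63% of tested probe sets. With low signals raised to the 40th percentile the responses were 3.36 and 0.84 and their difference -2.53 ± 0.48 (adjusted p = 0.0392). The spread of all tested differences was wider in replicate 1 too, with an SD of 1.89 in wild type and 2.31 in dor against 1.29 and 1.30 in replicate 2. Relative to all probe sets, UGT71B6 stood above 99.4% and 98.6% in replicate 1 of wild type and dor, and above 93.2% and 91.3% in replicate 2. The drought difference of BGLU33 was -0.69 within replicate 1 and -0.80 within replicate 2, and the 2 responses differed by -0.10 ± 0.59 (adjusted p = 0.922).

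For BGLU33 the largest source of variation was the replicate number. Replicate 2 exceeded replicate 1 by 1.98-fold in wild type control, 2.15-fold in wild type drought, 4.89-fold in dor control and 3.89-fold in dor drought. The same direction in all 4 groups was seen in 24.6% of tested probe sets. In the added fit replicate 2 was higher by 1.59 ± 0.29 over both conditions (adjusted p = 0.0240), where 17.1% of tested probe sets were called. The difference was 1.27 after quantile normalization (adjusted p = 0.0557) and 0.95 after centring each array on its median (adjusted p = 0.0769). The value of UGT71B6 over both conditions was -0.06 ± 0.30 (adjusted p = 0.898), with opposite signs in the 2 conditions. It was -0.43 after quantile normalization, -0.70 after median centring and -0.77 with low signals raised (adjusted p = 0.0551). Under control watering its replicate 2 minus replicate 1 was 1.90 ± 0.42 (adjusted p = 0.0265), a difference between signals that all lay under the 40th percentile, and with these raised it was 0.49 ± 0.34 (adjusted p = 0.293). Under drought, where all signals lay above that mark, it was -2.03 ± 0.42 (adjusted p = 0.0794), and the same value had an adjusted p of 0.0472 in the fit with low signals raised. The shares of tested probe sets called for control watering and drought, without raised signals, were 23.0% and 0.200%.

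Measures of the arrays also moved with replicate number. The median signal was 97.4 to 120.5 in replicate 1 and 163.4 to 170.8 in replicate 2, and the geometric mean of 12 bacterial spike-in probe sets was at least 337 in replicate 1 and at most 104 in replicate 2. The actin signal at the 5 prime end over that at the 3 prime end, which reflects RNA integrity and labelling, was 0.229 for wild type and 0.245 for dor in the replicate 1 controls, and it was at least 0.366 elsewhere. The ubiquitin ratio, middle over 3 prime, was 0.184 and 0.174 in those controls and at least 0.331 elsewhere. The GAPDH ratio, 5 prime over 3 prime, showed no such drop, at 1.01 and 1.03 against 0.80 to 1.09 elsewhere. The part of these measures in the values of either gene was not tested. Without both controls of replicate 1 the drought response of UGT71B6 over both genotypes was 2.57, against 3.52 with all arrays. That fit set drought arrays of both replicate numbers against controls of replicate 2 alone. The array measures and the replicate number therefore cannot be told apart in it.

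The layout of 2 conditions, 2 genotypes and 2 replicate numbers lets the variation of each gene over the 8 arrays be divided. For UGT71B6 the condition took 72.8% of the sum of squares of log2 signal and the product of condition and replicate number 22.7%. The genotype took 4.37%. For BGLU33 the replicate number took 72.8%, the condition 16.1% and the product of genotype and replicate number 8.38%. That product coincides with the extraction wording, and the 2 cannot be told apart. The medians over all tested probe sets were 27.9% for condition, 16.8% for replicate number and 11.8% for their product. These shares are a description of 8 arrays and carry no test.

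**Figure D3:**
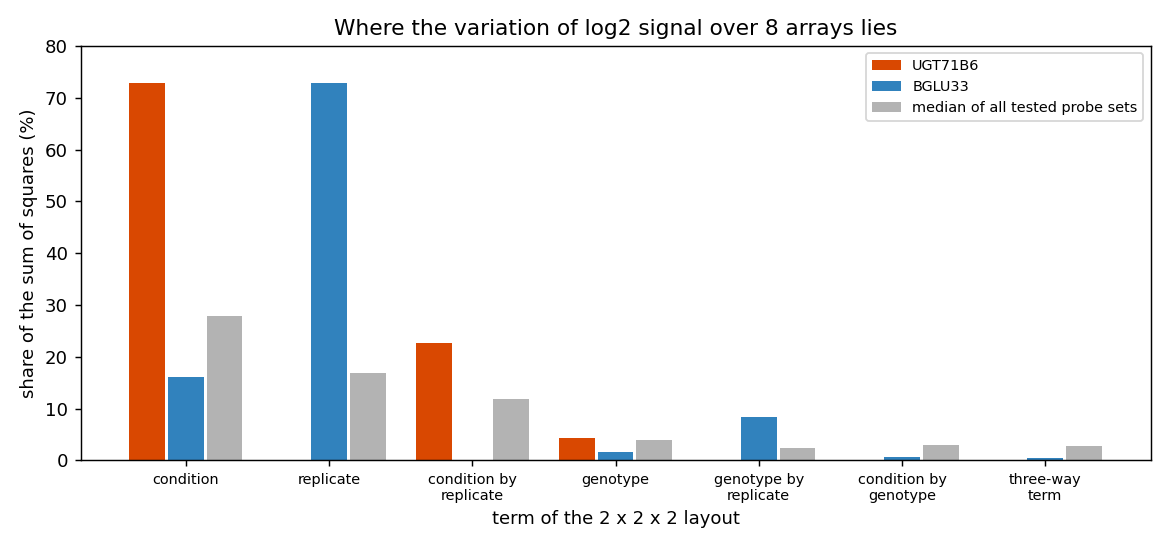
Share (%) of the sum of squares of log2 signal over the 8 arrays taken by each term of the layout, for UGT71B6, BGLU33 and the median of all tested probe sets. Condition leads for UGT71B6 and replicate number for BGLU33, each at 72.8%.

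Because the enzymes act in opposite directions, the contrast between them was followed on each array. The log2 signal of UGT71B6 minus that of BGLU33 was -5.56 in replicate 1 and -4.69 in replicate 2 of wild type control, and -3.92 and -4.26 in dor control. Under drought it was 0.64 and -2.47 in wild type and 2.26 and -1.76 in dor. All 4 drought values exceeded all 4 control values. The mean shift was 4.27, with a two-sided p of 0.0286 in an exact permutation test of 4 against 4 arrays, the smallest p that 70 splits allow. UGT71B6 by itself already had all 4 drought signals above all 4 control signals, as 10.5% of tested probe sets did. The contrast was also chosen with earlier results of these data known. The p is therefore no separate support for a drought response of either gene. The permutation test treats the 4 arrays of a condition as independent. Same-numbered wild type and dor arrays shared deviations (r = 0.594 in control and 0.402 in drought), so this p may be too small. Permuting within replicate number gave the smallest p possible there, 0.0556. Raising low signals to the 40th percentile reduced the shift to 2.85 (exact permutation p = 0.0571). The value shows that the signals of these genes moved unequally, and a signal of one probe set cannot be set against that of another as a level of transcript.

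The genotype comparisons ask whether either gene differs in the dor mutant. In UGT71B6 dor was above wild type in all 4 pairs of condition and replicate number, by 1.88-fold and 2.00-fold in control replicates 1 and 2 and by 1.73-fold and 1.68-fold in drought. Of tested probe sets 8.69% had dor above wild type in all 4. The mean of the 4 log2 differences was 0.86 ± 0.11 (SD, n = 4 pairs), with an exact two-sided permutation p of 0.125, the smallest that 4 pairs allow. The control signals compared were all under the 40th percentile, and once raised to it they differed by 0.02. In limma the difference was 0.96 ± 1.16 under control watering and 0.77 ± 1.16 under drought, with an adjusted p of 1.00 in both. The fit over both conditions, added after the data were seen, gave 0.86 ± 0.76, and 0.86 ± 0.30 with condition and replicate number as fixed terms (adjusted p = 0.659). With low signals raised to the 40th percentile that last value was 0.39. BGLU33 had no common direction, since dor was 0.604 and 0.567 of wild type in replicate 1 (control and drought) and 1.49 and 1.02 of it in replicate 2. The extraction wording differed between dor and wild type in every such pair and swapped with replicate number. This change of direction and the extraction cannot be told apart. The limma differences of BGLU33 were -0.08 ± 0.96 under control watering and -0.39 ± 0.96 under drought. No probe set was called by limma in these genotype comparisons, where 71 of 15523 (0.457%) had an unadjusted p under 0.05 under control watering and 492 (3.17%) under drought.

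Whether the drought response itself differs between the genotypes was tested by the difference of the responses, dor minus wild type. It was -0.19 ± 1.64 for UGT71B6 (95% interval -3.94 to 3.56) and -0.32 ± 1.36 for BGLU33 (-3.43 to 2.80). limma called 0 probe sets in this comparison, and 185 (1.19%) had an unadjusted p under 0.05. The random block gave narrower intervals, -2.096 to 1.72 for UGT71B6 and -1.997 to 1.37 for BGLU33, and condition with replicate number as fixed terms gave -1.84 to 1.46 and -1.86 to 1.22. All of these intervals hold 0 and allow differences of more than 1 log2 unit in either direction, so they do not show the responses to be alike.

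Of the other genes of ABA synthesis, oxidation, conjugation, release, transport, perception and signalling, a list of 51 loci, 6 had a probe set that the tables pair with 1 gene and 4 of these were tested. None of the synthesis, oxidation, receptor, phosphatase or kinase loci was among the 6, and those are not analysed here. In the drought response over both genotypes 1 of the 4 was called higher and 0 lower, where 2.84% of all tested probe sets were called higher and 2.97% lower. Their median was 0.17, as for all tested probe sets. The called gene was AT3G21790 (UGT71B7), which lies next to UGT71B6 in the RefSeq gene table, between it and UGT71B8. It read 161.4 and 349.3 in wild type control, 211.3 and 291 in dor control, 1226.7 and 901 in wild type drought, and 2787.8 and 1162 in dor drought, for replicates 1 and 2.

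AT3G21790 thus stood higher in all droughted samples without overlap, as 10.5% of tested probe sets did. Its position ran from above 59.2% of probe sets to above 94.2%. The gene rose by 2.50 ± 0.44 over both genotypes (adjusted p = 0.0183). In the separate genotypes the difference was 2.15 in wild type (adjusted p = 0.400) and 2.86 in dor (adjusted p = 0.116). Its pairs repeated the split by replicate number, with 7.60-fold and 13.2-fold in wild type and dor of replicate 1 against 2.58-fold and 3.99-fold in replicate 2. Over the 8 arrays its log2 signal correlated with that of UGT71B6 at r = 0.960, a description of arrays that share plants, conditions and labelling. The call was lost with the random block (adjusted p = 0.167), without both controls of replicate 1 (adjusted p = 0.153), and without either replicate 1 array of either genotype (adjusted p from 0.0558 to 0.0662). Raising low signals left it in place (adjusted p = 0.0138). Cross-hybridisation between the probe sets of these neighbours was not tested, as no probe sequence was analysed here.

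**Figure D4:**
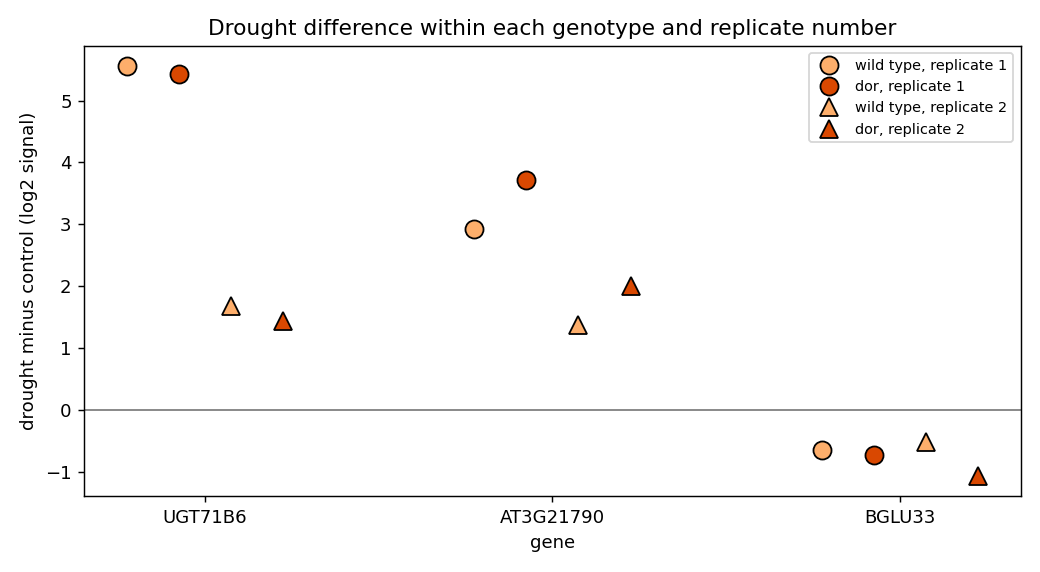
Drought minus control (log2 signal) within each genotype and replicate number for UGT71B6, its neighbour AT3G21790 and BGLU33, with circles for replicate 1 and triangles for replicate 2. All 4 points of UGT71B6 and AT3G21790 are above 0 and higher in replicate 1, and all 4 of BGLU33 are below 0 with no such split.

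No other measured glucosyltransferase of the ABA conjugation list was called. UGT71C5, which also makes the ABA glucose ester, read 202.5 and 659.7 in wild type control, 338.5 and 401 in dor control, 644.3 and 255.7 in wild type drought, and 491.2 and 291.2 in dor drought. Its drought difference over both genotypes was 0.09 ± 0.49 (adjusted p = 0.917), with drought above control in both pairs of replicate 1 and below it in both of replicate 2. UGT73B1, a glucosyltransferase active on ABA in the test tube, differed by 0.24 ± 0.91 (adjusted p = 0.883) and stood out on 1 array, wild type drought replicate 1, at 970.6 against 34.7 to 172.5 elsewhere. UGT84B1 (2.4 to 42.1) and UGT71B8 (4.5 to 79.2) did not pass the filter on low values. Of the 8 listed transporters only the efflux carrier DTX50 (AT5G52050) had a probe set that the annotation pairs with 1 gene. Its limma difference was -0.30 ± 1.13 (adjusted p = 0.883). Of the 3 β-glucosidases listed for the glucose ester BGLU33 alone had a probe set so paired. The array may hold probe sets for the other listed genes that the annotation leaves unlisted or pairs with several genes.

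Within the UGT71 family 10 of 12 loci had a probe set that the annotation pairs with 1 gene, and 6 were tested. UGT71B6 and AT3G21790 were the called members, both higher, where 2.84% of all tested probe sets were. The median over the other 5, UGT71B6 left out, was 0.69 against 0.17 for all tested probe sets. UGT71C4 was at 834.5 to 1901.2 in control and 1655.1 to 3268.4 in drought, a difference of 0.69 ± 0.33 (adjusted p = 0.211). UGT71B1 was the 1 negative member (-0.65 ± 0.48, adjusted p = 0.404), and UGT71B5 differed by 1.44 ± 0.94 (adjusted p = 0.342). UGT71C1, UGT71C2, UGT71C3 and UGT71B8 were not tested.

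Among all genes whose symbol starts with UGT, a group formed after the data were seen, 29 of 47 were tested, with a median drought difference of 0.24 over both genotypes and 18 above 0, where 56.2% of all tested probe sets were above 0. The called members were UGT73B5 (5.36 ± 0.90, adjusted p = 0.0158), a glucosyltransferase known for induction by stress, UGT71B6, and UGT85A5 (2.46 ± 0.55, adjusted p = 0.0372). AT3G21790 (UGT71B7), called by limma at 2.50 (adjusted p = 0.0183), has its locus as symbol in the gene table. It therefore falls outside this group and its counts. Of all tested probe sets 2.84% were called higher. None of the group was called lower. With low signals raised UGT71B6 (2.1005) was not called and lay under UGT73B5 (3.39) and UGT85A5 (2.46). AT3G21790, outside the group, was at 2.50 there. In that setting limma called UGT76C2 lower (-1.94, adjusted p = 0.0339), which without raising was at -2.80 (adjusted p = 0.0529). UGT73B5 too was low in control, at 4.1 to 88.1, and high in drought, at 456.5 to 1620.6. Of the genes whose symbol starts with BGLU 8 of 20 were tested, with a median of -0.61 and 1 above 0, and none was called, against 56.2% above 0 and 5.81% called over all tested probe sets. BGLU33 ranked 6 from the top of these 8 for drought and 3 for replicate 2 over replicate 1, where the median of the 8 was 1.16.

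The genes whose log2 signals followed each member most closely over the 8 arrays were taken from 8458 other tested probe sets with 1 gene. For UGT71B6 they were AT3G07790 (r = 0.991), AT4G03030 (r = 0.991), AT2G39400 (r = 0.989), AT1G13880 (r = 0.987) and AT5G04910 (r = 0.987). Their drought differences over both genotypes ran from 0.88 to 2.94. AT2G39400 was called by limma (adjusted p = 0.0257), where 2.84% of tested probe sets were called higher. It read 212.8 to 1068.9 in control and 1527.3 to 5726 in drought. These genes were picked for likeness to UGT71B6, so their rise under drought is no separate result. The genes running most against UGT71B6 were AT2G22230 (r = -0.997), AT4G27720 (r = -0.997) and AGL87 (r = -0.992), with differences of -1.92, -2.37 and -2.26. AT4G27720 and AGL87 were called lower by limma (adjusted p = 0.0334 and 0.0331), where 2.97% of tested probe sets were. Their fall too follows from how they were picked.

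For BGLU33 the closest were AT2G07708 (r = 0.982), AT1G80245 (r = 0.976), AT5G61540 (r = 0.965), the plastid ribosomal protein gene rpl16 (r = 0.963) and AT5G02830 (r = 0.955). All 5 were higher in replicate 2 than in replicate 1 in every group, as BGLU33 and 24.6% of tested probe sets were. They were picked for likeness to BGLU33, so this shared direction is no separate result. None was called for drought over both genotypes, where 5.81% of tested probe sets were. The genes running most against it were AT1G79660 (r = -0.982), AT5G17610 (r = -0.968) and AT2G23120 (r = -0.961). UGT71B6 and BGLU33 correlated with each other at r = -0.366. These correlations describe 8 arrays that share conditions and replicate numbers.

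For a check of the labelled tissue, the Calvin cycle and antenna genes RCA, PRK, SBPASE, LHCB4.1 and LHCB4.3 were the 5 of 7 leaf markers with a probe set in the tables. They stood above 54.1% of probe sets or more on every array, and RCA above at least 98.9%. In drought all 5 differed negatively over both genotypes, with a median of -1.34, and LHCB4.3 was called. The root gene PYK10 was the 1 of 8 markers of other organs with a probe set that the annotation pairs with 1 gene. It read 14.4 to 53.9 in control, 8.3 in dor drought replicate 1 and 78.7 to 192.2 on the other drought arrays. It passed the filter on low values, and its limma drought difference over both genotypes was 1.26 ± 1.01 (adjusted p = 0.436). The seed and flower markers were not analysed here. DOR itself read 2.3 to 21.4 on all 8 arrays, under the 40th percentile in wild type as in dor, and gave no check of the genotype labels.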

How the data were processed

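The deposited intensity values give 1 linear signal per probe set and array, and GCOS and MAS5 are the tools named in the submitters' processing notes. Their versions and a genome build are not given in the sources used here, so no coordinates are printed. Log2 was taken after raising signals under 1 to 1, with no further scaling. Tests covered the 15523 of 22810 probe sets that reached the 40th percentile of an array on 2 or more arrays, without 64 control probe sets. A probe table and the RefSeq gene table gave names. Of all probe sets 13513 stood for 1 gene, of which 13436 matched the gene table, 503 stood for several and 8730 were unlisted there. The number of columns left unmapped was 0.

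Two-sided comparisons used limma (version 3.58.1, R version 4.3.3), with lmFit, contrasts.fit and trended eBayes, and the Benjamini-Hochberg method over all tested probe sets at 0.05. The fit of 4 group means left 4 residual degrees of freedom and the additive fit 5. The code was tested on simulated data. With 2 arrays per group, their number limits the precision. Replicates are labelled biological, and separate plantings are not described, so p-values measure the spread between these samples.

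The members, lists and tests were chosen with earlier results of these data known. Named genes are the members, up to 3 called genes per list and direction, enzymes of the ABA glucose ester, family UGT71B, and the 5 closest and 3 most opposed genes by Pearson r. UGT73B5, UGT85A5, UGT76C2 and the groups by symbol were chosen after their values were seen. Alternatives were other scalings, filters and offsets, no trend, only the 4 arrays compared, the replicate number or extraction wording as a term, and left-out arrays. Condition with replicate number as a random block was another. Replicate blocks within condition, fits within a replicate number, differences over both conditions, and raised low signals for replicate comparisons and related genes were added after the data were seen. Figures were drawn in Python (3.11.15) using pandas (2.3.3) and matplotlib (3.10.9).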

Additional observations from a re-analysis of the deposited data

How the results depend on the processing

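The drought differences of UGT71B6 in wild type (1.72 to 4.62) and in dor (2.40 to 4.46) kept their sign and stayed short of the threshold in 20 other settings each. Over both genotypes its rise lost the call in 10 of 21 settings, with low signals raised to the 40th percentile (2.1005, adjusted p = 0.0523), with the random replicate block of condition and number (3.52, adjusted p = 0.169), with the extraction wording as a term (3.52, adjusted p = 0.0666), within replicate number 2 (1.56, adjusted p = 0.165), without both controls of replicate 1 (2.57, adjusted p = 0.226), and without 5 of the 8 single arrays. Those 5 were the 4 arrays of replicate 1 and dor drought replicate 2, and over all single arrays the rise ran from 3.10 to 3.95. BGLU33 kept its sign in wild type (-1.14 to -0.04) and over both genotypes (-1.57 to -0.26) but in dor ranged from -2.05 to 0.24, with 0.08 without dor drought replicate 1 and 0.24 without dor control replicate 2. Fits without a single array have no replicate term, so they set 1 replicate number of a group against both of another. In UGT71B6 dor was above wild type in all 4 pairs of condition and replicate number. Leaving out single arrays also turned the genotype differences. Under control watering they ran from -0.0168 to 1.93 for UGT71B6 and from -1.22 to 1.07 for BGLU33 (0.57 without both controls of replicate 1), and under drought from -0.26 to 1.80 and from -1.37 to 0.59. The difference of the drought responses ran from -1.21 to 0.84 for UGT71B6 (0.75 with raised signals) and from -1.46 to 0.83 for BGLU33. The unequal shift of the genes (single arrays 3.41 to 4.99) passed the exact permutation test without any 1 drought array, but not without any 1 control array, with raised signals (2.85) or within the replicate block (4.27, p = 0.0556, the smallest possible). After quantile normalization and median centring the replicate shift of BGLU33 was no longer called. The cause was not tested.

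Counts of called probe sets moved too. For drought in wild type there was 1, with 3 after quantile normalization and with only the 4 arrays compared, 2 with raised signals, 0 with median centring, without the trend, with the extraction wording and without both controls of replicate 1, and 0 to 6 without single arrays. For dor there were 88, with 153 after quantile normalization, 167 with raised signals, 35 with the extraction wording, 0 without both controls of replicate 1 and 0 to 108 without single arrays. Over both genotypes there were 902, with 1682 in the fixed replicate block, 12 in the random one, 387 with the extraction wording, 6354 and 63 within replicate numbers 1 and 2, 12 without both controls of replicate 1 and 171 to 1543 without single arrays. The genotype difference under drought had 0, and 22 with the random block. Deviations of same-numbered arrays correlated at 0.594 between genotypes under control watering and 0.402 under drought, but at -0.04 to 0.05 between conditions. The fixed replicate block changed no call of either gene.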
